A study of Homo sapiens with 2 samples.

Results

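The genes described here are 6 that encode readers of acetylated lysine or a partner of chromatin-modifying complexes: BRD2, BRD3 and BRDT of the BET (bromodomain and extra-terminal) family, the bromodomain genes BRD1 and BRD9, and WDR5. They were chosen by RefSeq symbol from 19974 protein-coding genes, and every peak that overlapped a gene's span or the 10 kb on either side of it was taken. These 6 windows held 93 of the 258195 hypoxia peaks and 31 of the 120033 normoxia peaks. Histone H4 acetylated at lysine 5 (H4K5ac) had been mapped by chromatin immunoprecipitation sequencing (ChIP-seq) in FaDu, an established cell line of human head and neck cancer. The hypoxia group was 1 library from cells held in 1% O2 for 18 h, and the normoxia group was 1 library from cells without that treatment. Knockdown of METTL4 appears in the culture protocol, but no label assigns it to either library, and the series' design text names another histone mark than the sample labels, which are followed here. The comparison asks how the distribution of the mark differs between the 2 oxygen conditions.

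Bromodomains are protein modules that bind acetylated lysine, and those of BET proteins bind the tail of histone H4 acetylated at lysines 5 and 8, so the BET genes encode readers of the mark that was mapped. BRD2 and BRD3 are BET proteins of most tissues that couple acetylated chromatin to transcription, and BRDT is their germ cell relative, needed for spermatogenesis in mice. BRD1 is a scaffold of histone acetyltransferase complexes, BRD9 is a subunit of the non-canonical BAF chromatin remodelling complex, and WDR5 has no bromodomain but is a WD-repeat scaffold of the KMT2 and SETD1 methyltransferases of histone H3 lysine 4.

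Each library has a deposited list of peaks with position, fold over local background and −log10 q-value, and these are the authors' values. Fold and q-value were used to describe or rank peaks within a list, and their values in the 2 lists are set side by side without being read as a change. Across lists they entered only a common q-value threshold for strong peaks and a measure of likeness between genes. The number of reads over each summit (pileup) and the local background were solved from the deposited fold and p-value. The depth of the libraries is not given in the sources used here. The lowest background was 3.24 reads in hypoxia and 3.13 reads in normoxia, which with equal fragment lengths is a read ratio of 1.04 and with the narrowest peak width as fragment length 1.18. The hypoxia list held 2.15 times as many peaks as the normoxia list, and a count of peaks also depends on where the caller drew its threshold. With 1 library per condition there is no replicate check and no test: 95% intervals cover counting error only.

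Of the lists of marker genes, 9 of 10 squamous epithelial markers had a peak within 1 kb of a gene start in both libraries. TP63, a squamous transcription factor, had one in neither, although its span plus 10 kb held 37 hypoxia and 25 normoxia peaks. Among all protein-coding genes 69.7% had a start peak in both libraries, 10.7% in hypoxia alone and 18.8% in neither. A RefSeq start was listed for 15812 of these 19974 genes, and both ends of the span stood in for the rest. Of 10 markers of leukocytes, endothelium, fibroblasts and muscle, 3 had a start peak in both libraries, 5 in hypoxia alone and 2 in neither. The part of these values in the results below was not tested.

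Sequences at gene starts are given first for the starts where the 2 lists differ, for starts in a short gap between start peaks, and, for contrast, for a start covered in both libraries. Each runs from 250 bases before to 50 after a start listed in RefSeq, 5′ to 3′ along the gene, on GRCh38.p14 (hg38). The BRD2 start at 32973084 and the BRDT start lay under a hypoxia peak and under no normoxia peak, whereas the BRD2 start at 32971595 lay under a normoxia peak and under no hypoxia peak. The other listed BRDT start, also under a hypoxia peak alone, has a largely overlapping window that is not printed. The BRD3 and WDR5 starts lay between peaks in both libraries, and the BRD9 window lay wholly under a peak of each. Capitals mark ACGTG and GCGTG, the core of the hypoxia response element bound by hypoxia-inducible factors, and TATAAA, the TATA box, on either strand, so that CACGC is GCGTG read on the other strand. The E-box CACGTG holds ACGTG on both strands.
BRD2, start 32973084, chr6:32972834-32973133, plus strand: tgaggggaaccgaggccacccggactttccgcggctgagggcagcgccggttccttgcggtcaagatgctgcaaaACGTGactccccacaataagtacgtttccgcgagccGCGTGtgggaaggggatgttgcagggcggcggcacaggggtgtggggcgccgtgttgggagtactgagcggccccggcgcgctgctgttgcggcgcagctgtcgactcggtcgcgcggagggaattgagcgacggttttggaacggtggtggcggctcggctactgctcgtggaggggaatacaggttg
BRD2, start 32971595, chr6:32971345-32971644, plus strand: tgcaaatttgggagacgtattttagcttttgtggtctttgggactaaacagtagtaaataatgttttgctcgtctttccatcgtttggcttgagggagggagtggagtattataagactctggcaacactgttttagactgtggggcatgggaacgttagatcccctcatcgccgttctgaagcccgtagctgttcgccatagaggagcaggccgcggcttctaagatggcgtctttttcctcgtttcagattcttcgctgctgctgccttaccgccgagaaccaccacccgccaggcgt
BRDT, chr1:91949121-91949420, plus strand: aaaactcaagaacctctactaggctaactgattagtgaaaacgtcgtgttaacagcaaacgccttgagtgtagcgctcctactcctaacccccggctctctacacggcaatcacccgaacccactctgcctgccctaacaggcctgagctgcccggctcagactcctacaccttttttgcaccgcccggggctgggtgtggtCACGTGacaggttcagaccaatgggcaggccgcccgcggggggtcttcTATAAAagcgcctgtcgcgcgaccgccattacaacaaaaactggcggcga
BRD9, chr5:892752-893051, minus strand: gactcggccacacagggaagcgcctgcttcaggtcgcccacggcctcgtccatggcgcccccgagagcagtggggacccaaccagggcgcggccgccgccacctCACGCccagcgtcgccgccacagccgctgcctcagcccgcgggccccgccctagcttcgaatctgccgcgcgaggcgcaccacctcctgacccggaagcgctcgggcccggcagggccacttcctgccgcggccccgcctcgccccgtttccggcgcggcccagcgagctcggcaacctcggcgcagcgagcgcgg
BRD3, chr9:134067977-134068276, minus strand: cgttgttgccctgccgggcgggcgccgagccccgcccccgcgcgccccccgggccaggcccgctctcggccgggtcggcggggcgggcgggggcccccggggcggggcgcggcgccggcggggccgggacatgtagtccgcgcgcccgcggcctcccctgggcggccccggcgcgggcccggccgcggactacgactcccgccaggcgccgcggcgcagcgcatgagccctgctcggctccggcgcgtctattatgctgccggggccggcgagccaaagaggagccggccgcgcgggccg
WDR5, start 134136082, chr9:134135832-134136131, plus strand: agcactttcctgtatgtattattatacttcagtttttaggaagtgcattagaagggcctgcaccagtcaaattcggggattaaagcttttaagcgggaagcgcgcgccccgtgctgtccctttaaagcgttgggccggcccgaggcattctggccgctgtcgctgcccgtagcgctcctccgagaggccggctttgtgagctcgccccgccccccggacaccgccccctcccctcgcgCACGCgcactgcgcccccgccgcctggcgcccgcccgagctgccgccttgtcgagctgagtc

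The BRD2 window of start 32973084 has 1 ACGTG and 1 GCGTG, and 270 of its bases lay under hypoxia peaks and 0 under normoxia peaks. That of start 32971595 holds none of these motifs, and 215 of its bases lay under hypoxia peaks and 258 under normoxia peaks. The BRDT window has 1 CACGTG and 1 TATAAA, and 158 of its bases lay under hypoxia peaks and 0 under normoxia peaks. The BRD9 window has 1 GCGTG, and all 300 bases lay under peaks in each library. The WDR5 window has 1 GCGTG, and 151 of its bases lay under hypoxia peaks and 143 under normoxia peaks. The BRD3 window also holds none of these motifs, with a GC content of 85% and 56 CpG dinucleotides, a CpG number reached by 0.298% of windows. Its bases under peaks numbered 22 in hypoxia and 0 in normoxia. Among all 22132 RefSeq windows of this length, 23.1% hold ACGTG, 43.0% hold GCGTG, 9.46% hold TATAAA and 8.34% hold CACGTG, and the median GC content is 62.3%. These matches describe the letters and say nothing of binding.

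All 6 windows held more hypoxia peaks than normoxia peaks, as did the windows of 79.0% of protein-coding genes. Together they held 93 hypoxia peaks against 31 normoxia peaks, a ratio of 3.0 (95% interval 1.98 to 4.66, counting error only), beside 2.15 for the whole lists. In BRD1 the counts were 31 hypoxia peaks and 7 normoxia peaks, a ratio of 4.43 (1.91 to 11.9). BRD9 had 15 hypoxia peaks and 3 normoxia peaks, a ratio of 5.00 (1.41 to 26.9). BRDT had 18 hypoxia peaks and 4 normoxia peaks, a ratio of 4.50 (1.48 to 18.3). These are the highest ratios among the 6 genes. Of the 17671 genes with a normoxia peak in the window, 6.26% had a ratio as high as that of BRD1, 5.31% as that of BRD9 and 6.24% as that of BRDT. The other 3 lay lower. BRD3 had 13 hypoxia peaks and 6 normoxia peaks (ratio 2.17, interval 0.768 to 6.95). WDR5 had 10 hypoxia peaks and 6 normoxia peaks (ratio 1.67, 0.549 to 5.58), and BRD2 had 6 hypoxia peaks and 5 normoxia peaks (ratio 1.2, 0.305 to 4.97). A ratio of at least 2 was found in 4 of the 6 genes, against 45.9% of genes, and the median ratio was 3.30 over the 6 and 1.75 over all. The intervals of neighbouring genes in this order overlap. The BRD1 window alone gave 31 of the 93 hypoxia peaks. Without it, an alternative chosen after its values were seen, there were 62 hypoxia peaks and 24 normoxia peaks, a ratio of 2.58 (1.59 to 4.33). With the hypoxia list shortened to its strongest peaks, as many as the normoxia list holds, the 6 windows held 53 hypoxia peaks against 31 normoxia peaks, a ratio of 1.71 (1.08 to 2.76).

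**Figure D1:**
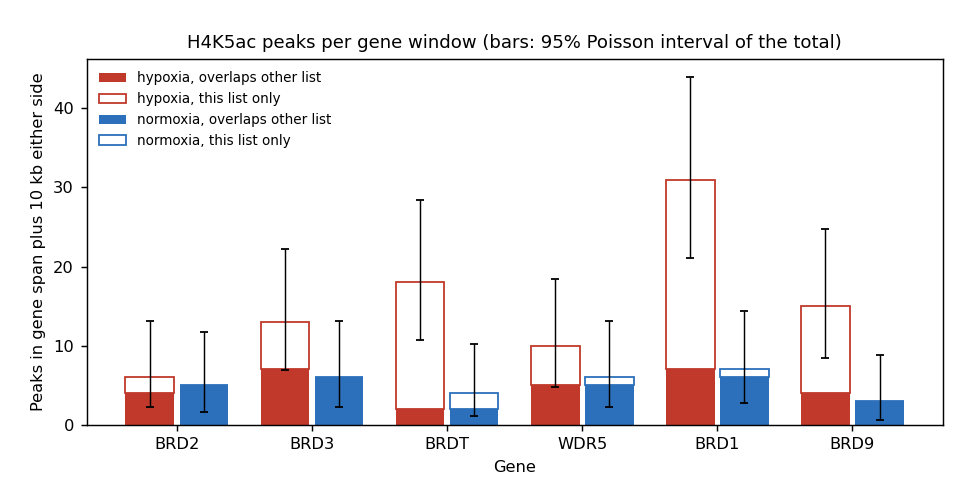
Number of H4K5ac peaks in the span plus 10 kb of each gene, hypoxia left and normoxia right, with filled bars for peaks that overlap the other list and open bars for those that do not. Error bars are 95% Poisson intervals of each total, and the open part is tallest in BRD1, with 24 of 31 hypoxia peaks.

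In the 6 windows the difference in peak number was larger in the rest of the gene spans than within 1 kb of starts. The same split was not made over all genes. Within 1 kb of a listed start there were 14 hypoxia peaks and 11 normoxia peaks, a ratio of 1.27 (0.537 to 3.10). In the rest of the spans there were 59 hypoxia peaks and 11 normoxia peaks, a ratio of 5.36 (2.79 to 11.3), and the intervals of the 2 ratios overlap. The upstream flanks held 5 hypoxia and 2 normoxia peaks (ratio 2.50, interval 0.409 to 26.3). The downstream flanks held 15 hypoxia and 7 normoxia peaks (2.14, 0.822 to 6.21). Strong peaks, with a deposited −log10 q-value of at least 10, came to 24 hypoxia peaks and 16 normoxia peaks, so that the ratio was 1.5 (0.764 to 3.02). The whole lists held 48782 strong hypoxia peaks and 29967 strong normoxia peaks, and their ratio of 1.63 lies within that interval. Of the 16 starts that RefSeq lists for the 6 genes, 11 lay under a hypoxia peak and 9 under a normoxia peak, beside 12418 in hypoxia and 11056 in normoxia of all 22132 listed starts.

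Most normoxia peaks had a hypoxia partner, whereas most hypoxia peaks had no normoxia partner. Of the hypoxia peaks, 29 of 93 (31.2%, exact interval 22 to 41.6) overlapped a normoxia peak by at least 1 bp, and of the normoxia peaks, 27 of 31 (87.1%, 70.2 to 96.4) overlapped a hypoxia peak. Over the whole lists these shares were 32.7% in hypoxia and 68.7% in normoxia. At gene starts the overlap was 78.6% of hypoxia peaks and 100% of normoxia peaks. In the rest of the spans it was 16.9% of hypoxia peaks and 72.7% of normoxia peaks. Shares by place were not computed over the whole lists. Peaks of 1 list alone numbered 64 in hypoxia and 4 in normoxia.

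Peak width followed the same division. The median width was 297 bp in hypoxia and 497 bp in normoxia, beside 294 bp for the whole hypoxia list and 356 bp for the whole normoxia list. Hypoxia peaks at gene starts had a median width of 736 bp and normoxia peaks there 774 bp. Overlapping hypoxia peaks had a median of 472 bp and overlapping normoxia peaks 552 bp. Hypoxia peaks without a partner had a median of 280 bp, against 252 bp for such normoxia peaks. The narrowest peak anywhere was 215 bp in the hypoxia list, against 245 bp in the normoxia list. Exactly that hypoxia minimum was the width of 5 BRDT peaks and 1 BRD9 peak. The median −log10 q-value was 12.6 for overlapping and 4.73 for single-list hypoxia peaks, and 25.6 for overlapping and 3.05 for single-list normoxia peaks. The same division ran through the whole lists. There the median −log10 q-value was 10 for overlapping and 3.86 for single-list hypoxia peaks, and 6.09 for overlapping and 3.13 for single-list normoxia peaks. The median width over the whole lists was 445 bp for overlapping peaks of either library, against 263 bp for single-list hypoxia peaks and 276 bp for single-list normoxia peaks. In the 6 windows strong single-list peaks numbered 4 in hypoxia and 0 in normoxia. How many strong peaks are single-list over the whole lists was not computed, so these counts have no background beside them.

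**Figure D2:**
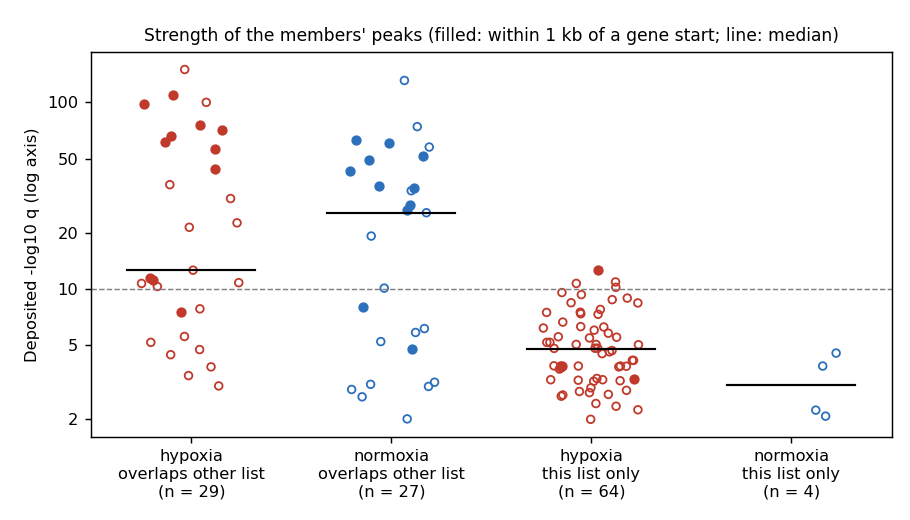
Deposited −log10 q-value (log axis) of each peak in the 6 windows, by library and by overlap with the other list. Filled points lie within 1 kb of a gene start, horizontal lines are medians and the dashed line marks 10, above which 4 of 64 hypoxia and 0 of 4 normoxia single-list peaks lie. The same shares were not computed over the whole lists.

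BRD2 (chr6:32968594-32981505, plus strand), with 4 listed starts, had peaks at its start in both libraries. The peak over the start had a fold of 3.40 and a pileup of 275 reads in hypoxia, and a fold of 3.09 and 185 reads in normoxia. The next peak spanned 2312 bp in hypoxia (chr6:32969248-32971559, fold 3.61), a width reached by 0.017% of that list. In normoxia the same stretch was covered by peaks of 1603 bp and 682 bp that lay 43 bp apart. Farther on, at chr6:32972253-32973103, hypoxia had a peak of 851 bp with a fold of 1.97, a −log10 q-value of 12.7 and a pileup of 165 reads over a background of 83.2, and no normoxia peak overlapped it. It covers the start at 32973084, whose sequence is printed above. The start at 32971595, in contrast, was covered in normoxia and missed in hypoxia, where the broad peak ended at 32971559. The median background over the peaks of the window was 79.8 reads in hypoxia and 59.3 in normoxia, the highest of the 6 windows. At the start peaks it was 79.4 to 83.2 in hypoxia and 58.0 to 62.5 in normoxia. The remaining peaks had 8.79 and 7.27 in hypoxia and 11.8 in normoxia. A start of LOC124901302 lies within 1 kb of the 3 most upstream BRD2 start peaks of each library, so these cannot be given to BRD2 alone.

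BRD3 (chr9:134030305-134068548, minus strand) had flanking peaks around its start in both libraries. The downstream one had a fold of 4.20 and 149 reads in hypoxia, and a fold of 3.97 and 127 reads in normoxia. The listed start, at 134068026 inside the span, lay in a gap of 604 bp in hypoxia and 598 bp in normoxia. The CpG-rich window printed above was thus almost free of peak in both. Upstream of the gap, 1 normoxia peak of 612 bp overlapped 2 hypoxia peaks of 219 bp and 238 bp. The outer end of the span, 134068548, lay under that normoxia peak and between those 2 hypoxia peaks. The highest peak of the window was at BRD3OS, an opposite-strand gene, with a fold of 9.85 and 246 reads in hypoxia and a fold of 10.3 and 210 reads in normoxia. A shared peak in the span, at LOC100130548, had summits 486 bp apart, the widest shift among one-to-one pairs. The 6 hypoxia peaks without a partner had folds of 2.00 to 3.93.

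BRDT (chr1:91949371-92014428, plus strand) was the only one of the 6 with a peak within 1 kb of a start in hypoxia alone, a class that holds 10.7% of genes. Hypoxia peaks within 1 kb of a start were found in 6 of the 6 genes (80.4% of all genes), and normoxia peaks in 5 of the 6 (70.6% of all genes). The BRDT start peaks, at chr1:91949263-91949477 and chr1:91949518-91949773, had folds of 2.80 and 2.96, −log10 q-values of 3.29 and 3.84, and pileups of 19 reads (95% interval 11.4 to 29.7) and 20 reads (12.2 to 30.9). With 250 bp in place of 1 kb on either side of a start, 6 of the 6 genes had a hypoxia peak. A normoxia peak was found in 4, since BRD3 then joined BRDT. The listed BRD3 start, inside its span, lay 229 bp from the nearest hypoxia peak and 285 bp from the nearest normoxia peak. Both BRDT start peaks were absent when the hypoxia list was shortened to its strongest 120033 peaks. The 16 hypoxia peaks of this window without a normoxia partner had folds of 2.80 to 5.19 but pileups of only 12 to 24 reads. The median background over all peaks of the window was 3.31 reads in hypoxia and 4.08 in normoxia. The 2 normoxia peaks without a partner, at chr1:91970439-91970748 and chr1:91983568-91983812, had 15 and 11 reads. The strongest peak of the window, upstream of the gene, had a fold of 5.00 and 33 reads in hypoxia and a fold of 3.82 and 22 reads in normoxia. Expression was not measured here.

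WDR5 (chr9:134135199-134159968, plus strand) lies 66.7 kb from BRD3. Its start region held 2 broad peaks in each library. WDR5-DT, a neighbour, also has a start within 1 kb of both, so they cannot be given to WDR5 alone. The upstream one had a fold of 5.06 and 211 reads in hypoxia, and a fold of 3.50 and 122 reads in normoxia. The downstream one had a fold of 4.46 and 180 reads in hypoxia, and a fold of 4.62 and 159 reads in normoxia. Of the 4 listed starts, the one at 134136082 lay between them, in a gap of 170 bp in hypoxia and 157 bp in normoxia. A group of 3 strong peaks lay beyond the 3′ end in each library. The last 2 of each library overlap LOC124902297, a long non-coding RNA gene. The middle peak also overlaps RNU6ATAC, a small nuclear RNA gene. In this group the middle peak had a pileup of 131 reads in hypoxia and 161 in normoxia. This is a pileup ratio of 0.814 with an interval of 0.641 to 1.03. The last had 221 reads in hypoxia and 140 in normoxia, which is a ratio of 1.58 (1.27 to 1.97), so the order of the libraries was not the same at these neighbours. The 5 hypoxia peaks of the window without a partner had folds of 1.77 to 2.77 and pileups of 37 to 52 reads, and the 1 such normoxia peak, at chr9:134147415-134147674, had a fold of 2.10 and 28 reads.

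BRD1 (chr22:49773278-49827873, minus strand) had the densest window in hypoxia, at 41.6 peaks per 100 kb, against 9.38 per 100 kb in normoxia. A density as high was reached by 0.245% of genes in hypoxia and 32.7% in normoxia. With 50 kb on either side of BRD1 there were 57 hypoxia and 12 normoxia peaks, so hypoxia peaks were also more numerous beyond the window. The outermost start lay at the edge of a peak with a fold of 5.08 and 308 reads in hypoxia and a fold of 4.27 and 214 reads in normoxia. On its gene-body side, past a gap of 428 bp in hypoxia and 374 bp in normoxia, lay a broader peak with a fold of 3.92 and 245 reads in hypoxia, and a fold of 4.15 and 211 reads in normoxia. Through the body and past the 3′ end ran 24 hypoxia peaks without a normoxia partner, with folds of 1.70 to 2.96 and pileups of 45 to 79 reads. Of these, 1 passed a −log10 q-value of 10, at chr22:49814222-49814528 with a fold of 2.96. In the body the libraries shared a peak near chr22:49788426-49788713, with 78 reads in hypoxia and 91 in normoxia, and its neighbour at chr22:49789055-49789526 had 78 reads in hypoxia and 50 in normoxia. The median gap between hypoxia peaks was 1055 bp. The median background over the peaks of the window was 29.8 reads in hypoxia and 21.4 in normoxia.

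BRD9 (chr5:863741-892801, minus strand) had 1 broad peak over its start in each library, 1610 bp with a fold of 6.51 and 218 reads in hypoxia and 1833 bp with a fold of 5.00 and 139 reads in normoxia. This peak also covers the start of the neighbour TRIP13, so it cannot be given to either gene. The window held 11 hypoxia peaks without a partner, with folds of 2.00 to 4.99 and pileups of 25 to 39 reads, and 9 of them lay in the gene body. In this window 2 of the hypoxia peaks that had no partner were strong: chr5:875961-876281, with a fold of 4.0, and chr5:901497-901940, with a fold of 4.99. The latter lies upstream of BRD9, inside the span of TRIP13. In the downstream flank, the 2 hypoxia peaks and 1 normoxia peak lie in the span of LOC128966726, a protein-coding gene. The only normoxia peak in the body away from the start, chr5:884644-885001, overlapped 2 hypoxia peaks.

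**Figure D3:**
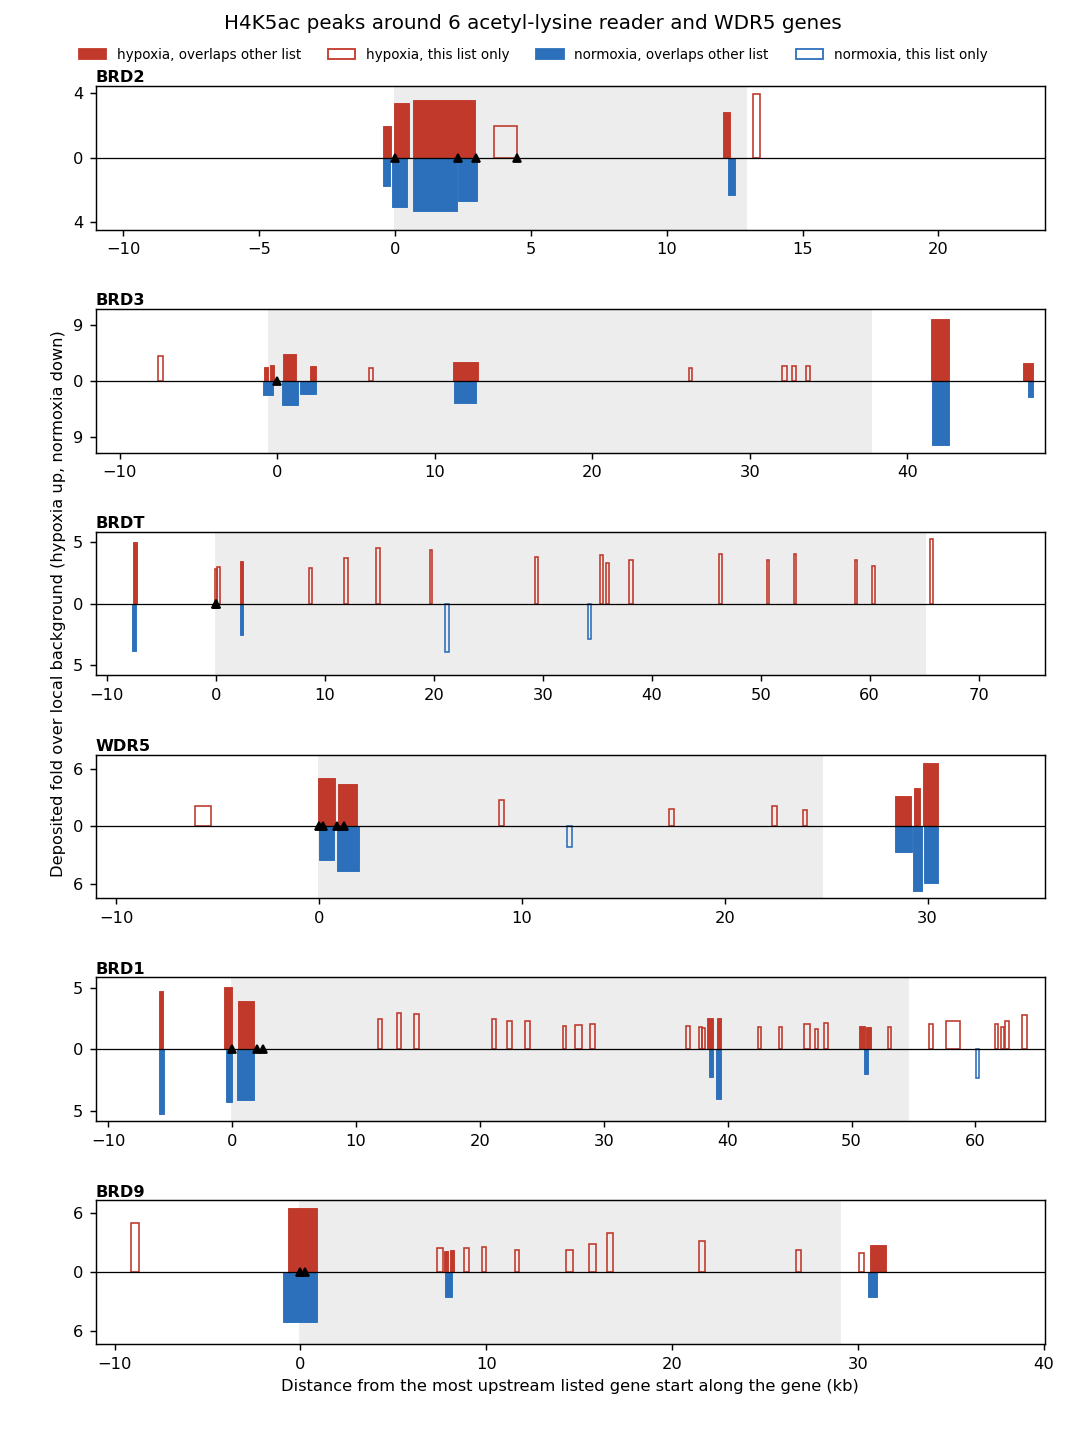
Peaks in the 6 windows along each gene, hypoxia upward and normoxia downward, as deposited fold against distance in kb from the most upstream listed start. Bars are drawn to their true width, filled where the peak overlaps the other list, grey marks the gene span and triangles mark listed starts; open bars in the gene bodies of BRDT, BRD1 and BRD9 are nearly all hypoxia.

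By summit pileup, which is counted at 1 position and does not depend on gene length, the highest-fold start peaks in hypoxia ran from BRD1 (308 reads, 95% interval 275 to 344) and BRD2 (294, 261 to 330) through BRD9 (218, 190 to 249) and WDR5 (211, 183 to 241) to BRD3 (149, 126 to 175) and BRDT (20, 12.2 to 30.9). BRD1 and BRD2 overlapped in their intervals, as did BRD9 and WDR5. In normoxia BRD1 (214 reads, 186 to 245) and BRD2 (203, 176 to 233) again led, followed by WDR5 (159, 135 to 186), BRD9 (139, 117 to 164) and BRD3 (127, 106 to 151), and BRDT had no start peak. The intervals of each of these neighbours in normoxia overlap. These pileups include the local background, which in hypoxia was 80.7 reads for BRD2 and 59.9 for BRD1. It was 40.9 for WDR5, 34.7 for BRD3, 32.6 for BRD9 and 6.11 for BRDT. By fold over background the order differed, with BRD9 first in hypoxia (6.51) and BRD2 (3.61) above BRDT (2.96) alone. In normoxia BRD9 was also first (5.00), and BRD2 (3.30) was lowest of those with a start peak. The ranked BRD2, BRD9 and WDR5 peaks also lie within 1 kb of a neighbour's start, so these orders rank peaks and not genes alone. Listed starts also differ in number, from 1 for BRD3 to 4 for BRD2 and WDR5.

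Coverage at shared peaks was higher in hypoxia in most pairs, with a ratio below that of the peak numbers. Over the 22 one-to-one pairs in the windows the median ratio of hypoxia to normoxia pileup was 1.48, with 18 above 1, and over all 69577 such pairs it was 1.27. Of the 22 intervals, 10 lay wholly above 1 and 0 wholly below 1. Pileups were not scaled for depth. Of the 22, 14 were strong in both lists, and their ratio of hypoxia to normoxia pileup had a median of 1.30 and a range of 0.814 to 1.73. Of these 14 intervals, 7 lay wholly above 1 and 0 wholly below 1. Over 21888 pairs strong in both whole lists the median was 1.37, so the 6 genes lay above the median of all pairs and below that of strong pairs. Of those 21888, 10% lay below 0.896 and 10% above 1.92. Among the 14, 7 lay above 1.37. The interval lay wholly above it in 1 pair, at the WDR5 start (1.73, interval 1.38 to 2.18). It lay wholly below it in 3: the middle peak past the WDR5 3′ end (0.814, 0.641 to 1.03), a peak in the BRD1 body (0.857, 0.625 to 1.17) and one upstream of BRD1 (0.989, 0.729 to 1.34). The peak upstream of BRD1 lies in the span of LOC105377205, a long non-coding RNA gene. Summits of the strong pairs had a median shift of 39.5 bp, beside 42.0 bp over all such pairs.

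**Figure D4:**
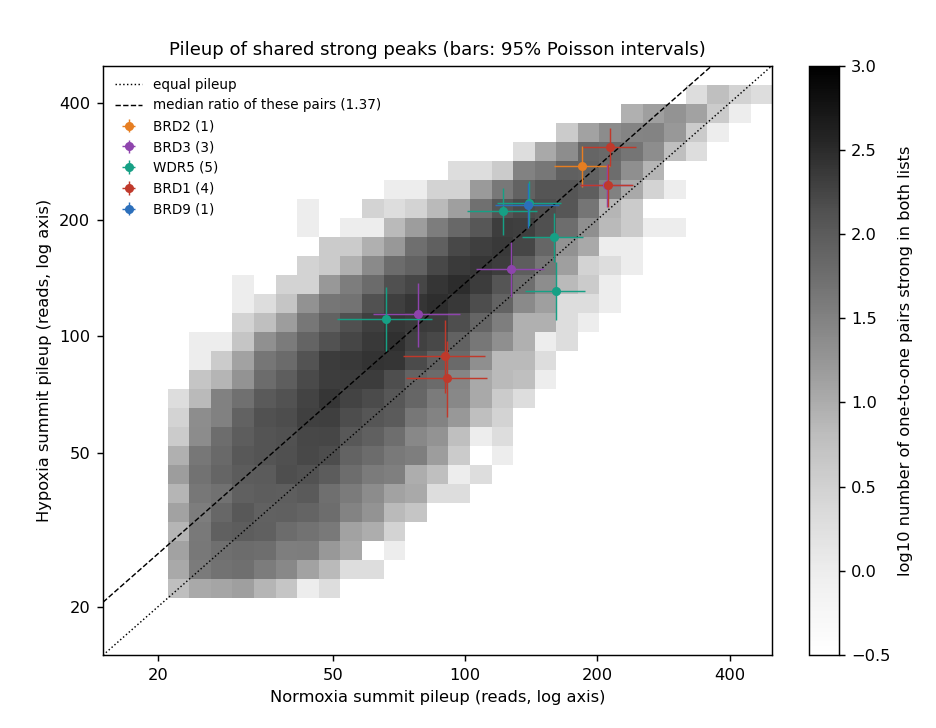
Summit pileup in hypoxia against normoxia (reads, log axes) for the 14 one-to-one pairs strong in both lists, coloured by gene with 95% Poisson intervals, over the 21888 such pairs of the whole lists in grey. The dotted line is equal pileup and the dashed line the median ratio of 1.37, and the 14 points fall on both sides of it.

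Genes related to these by function were mostly marked at their starts in both libraries. Of 31 other bromodomain genes, 28 had a start peak in both libraries and 3 in neither, which were CECR2, TAF1L and SP140. Of 22 genes of WDR5 partner complexes, 20 had one in both, 1 in normoxia alone and 1, SETD1B, in neither. SETD1B has no start in the RefSeq table used, so the ends of its span stood in for it. The gene in normoxia alone was MCRS1, a subunit of the NSL acetyltransferase complex, with a fold of 8.71, and a hypoxia peak with a fold of 11.3 began 1012 bp from its listed start, just outside the 1 kb window. All 12 genes listed for BRD1 and BRD9, of histone acetyltransferase and BAF-family complexes, had a start peak in both. Of all 19974 genes, 69.7% had one in both and 18.8% in neither.

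Among 30 other germ cell genes, 12 had a start peak in both libraries, 10 in hypoxia alone, 0 in normoxia alone and 8 in neither. A start peak in hypoxia alone was found in 10.7% of all genes, and also in 5 of the 10 markers of other cell types above. The 4 with the highest −log10 q-value among the 10 were DAZL (fold 5.89, −log10 q-value 11.4) and BOLL (5.18, 10.6), which encode germ cell RNA-binding proteins, TDRD1 (4.38, 8.13), a Tudor protein of the piRNA pathway, and SPO11 (3.81, 5.76), which makes meiotic DNA breaks. The median ratio of hypoxia to normoxia peak number in the windows was 2.00 for germ cell genes, 2.00 for bromodomain genes and 2.00 for WDR5 partners. It was 1.77 for the genes listed for BRD1 and BRD9, beside 1.75 for all genes.

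Likeness to the bromodomain and WDR5 partner genes was measured as the distance over 4 numbers, log2(peak count + 1) and log2(fold of the highest start peak + 1) in each library, over 53 genes, with a fold of 0 where there was no start peak. The nearest to BRD2 was CXXC1 (0.61, 4 hypoxia and 4 normoxia peaks), to BRD3 SP100 (0.51, 9 hypoxia and 6 normoxia) and to WDR5 also SP100 (0.21). The nearest to BRD1 was BAZ1B (0.75, 26 hypoxia and 9 normoxia) and to BRD9 BRD8 (0.64, 13 hypoxia and 5 normoxia). The nearest to BRDT was CECR2 (2.11, 21 hypoxia and 7 normoxia peaks). CECR2 had no start peak in either library, so this distance rests mostly on the fold of 0 entered for it in hypoxia.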

How the data were processed

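H4K5ac ChIP-seq of FaDu cells was read from the 2 peak lists that the authors deposited, 1 per library and called separately. The submitters' processing notes name hg38, MACS2 and SICER; whether a control was used, and the settings and versions, is not given in the sources used here. For each peak the authors deposited a score, a fold (ratio of summit signal to local background) and a −log10 p-value and −log10 q-value. Per the labels' protocols, reads were single-end and 75 bp long.

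Peaks were joined to gene spans plus 10 kb and to the RefSeq starts (GRCh38.p14), at an overlap of at least 1 bp, with Python 3.11.15 and SciPy 1.17.1. Fold and p-value were solved together for pileup and background, taking the fold as (pileup + 1) / (background + 1) and p as a Poisson tail, and this gave whole pileups (tolerance 0.02) for 99.999% of hypoxia and 100.000% of normoxia peaks. The solution was tested on simulated peaks. Genes without a listed start took both ends of their span as starts, whereas all of the 6 genes have listed starts. Shares of all genes with a start peak are therefore not on quite the same footing as those of the 6. Intervals are exact Poisson or Clopper-Pearson at 95%. No test of the condition was possible, with 1 library per condition. The 6 genes and the gene lists were chosen with earlier results of these data known. Beyond the 6, genes were named by a rule: those with a start peak in 1 library alone, at most 4 per list by −log10 q-value, the nearest gene to each of the 6, and neighbours in the windows. TP63, CECR2, TAF1L, SP140 and SETD1B were named after their values were seen. Alternatives were another window, strong peaks alone, lists of equal length, stitched peaks and a stricter overlap. Exons, introns and UTRs were not analysed here.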

Additional observations from a re-analysis of the deposited data

How the results depend on the processing

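Of 54 recomputed values, 39 stayed within their counting interval or within 1.5 times the first count, and 15 moved. Some of the 39 could not move: lists of equal length left the normoxia list, with its peak number, width and start count, unchanged. A fall from 6 to 5 genes with a hypoxia start peak also counted as staying. The ratio of hypoxia to normoxia peak numbers ranged from 1.5 to 3.54. With 50 kb on either side the windows held 191 hypoxia and 54 normoxia peaks, a ratio of 3.54 (2.60 to 4.88), so the excess was not confined to the 10 kb windows. With strong peaks alone in both lists there were 24 hypoxia and 16 normoxia peaks (ratio 1.5). Their median width was 628 bp in hypoxia and 798 bp in normoxia. A strong peak of the other list overlapped 62.5% of these hypoxia and 100% of these normoxia peaks. Against the full normoxia list, 20 of the 24 strong hypoxia peaks (83.3%) had an overlap. With the hypoxia list shortened to the length of the normoxia list there were 53 hypoxia peaks (ratio 1.71), with a median width of 373 bp and 45.3% overlapping. When an overlap had to cover 50% of both peaks, 20.4% of hypoxia and 61.3% of normoxia peaks overlapped. Shares over the whole lists were not computed under these settings. With 250 bp on either side of a start, 6 genes had a hypoxia and 4 a normoxia start peak. BRDT lost its hypoxia start peak with strong peaks alone and with lists of equal length. Leaving out the BRD1 window (ratio 2.58) and using the outermost gene start alone were chosen after seeing the data. No paired analysis was possible because each condition had 1 library. Single-list hypoxia peaks in the BRDT window rest on 12 to 24 reads each.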
